A study of Mus musculus with 9 samples.

Results

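The genes described here are 10 immediate early genes, most of which encode transcription factors, measured in bone shafts enriched for osteocytes, the cells embedded in mineralised matrix. The members were given by name: Fos, Fosb, Fosl2, Jun, Junb, Egr1, Egr2, Nr4a1, Ier2 and Ier3. Each was read from the probe sets annotated to that gene alone, and where there were several, from the one with the highest mean over the 9 arrays. All 10 were found among the 18194 genes measured this way, and all 10 had a mean above 4.87 on the log2 scale, the 40th percentile of gene means, below which a gene is called dim here.

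RNA came from digested tibial shafts of wild-type CD1 mice that were 16 to 18 weeks old, hybridised to Affymetrix mouse arrays with 3 arrays in each of 3 groups. Post-lactation dams had their pups taken away on day 12 of lactation and were killed 7 days later, lactation dams were killed on day 12 of lactation, and virgin mice of the same age were the controls. Litters of the dams held 8 to 13 pups. In every group periosteum and marrow were removed and the bone was digested repeatedly with collagenase and trypsin before RNA extraction, and the extraction text names femurs where the series design names tibiae. Groups were taken from the array titles, because the post-lactation arrays carry a source entry that names virgin mice. Whether the arrays represent different mice is not stated, so p-values measure only the spread between these arrays, which may be technical.

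The series set out to find genes with which osteocytes remodel the matrix around themselves, and these members ask whether the early transcriptional response differed between the reproductive states. Immediate early genes are transcribed within minutes of a stimulus by factors already present in the cell, without new protein synthesis, and their transcripts decay quickly. FOS and JUN proteins pair to form AP-1, EGR proteins are zinc finger factors, and NR4A1 is an orphan nuclear receptor. Known inducers include growth factors, parathyroid hormone, mechanical load and enzymatic dissociation of tissue. In bone, mice without Fos lack osteoclasts, and AP-1 proteins also act in osteoblasts.

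The arrays fell into 3 sets of 3, recognised from values shared exactly between arrays, and each set held 1 array of every group. Set 1 held post-lactation 1, lactation 3 and virgin 1, with array medians of 4.32 to 4.34. Set 2 held post-lactation 2, lactation 1 and virgin 3, each with a median of 4.57, and set 3 held post-lactation 3, lactation 2 and virgin 2, with medians of 4.80 to 4.82. Each comparison is therefore also read inside the sets and with set as a blocking factor. Virgin 1 stood apart from the other virgin arrays in the members and in cell markers, so results against virgin are given with and without it. As a check of the tissue, the osteocyte markers Dmp1, Mepe and Sost averaged 13.51, 12.42 and 12.22 over the 9 arrays, while Fgf23, also made by osteocytes, averaged 3.00, below the dim level. Neutrophil genes were bright as well, with S100a8 at 14.25 and Ngp at 14.15, and levels of different probe sets do not give the share of each cell type. Precision is limited by having 3 arrays a group.

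Promoter sequences are shown because the members were low together in virgin 1, as given further on, and are known to respond to shared signals. RefSeq windows of 300 bases, from 250 before to 50 after a start site on GRCm38.p6, were at hand for 8 of the 10 members, and Egr1 and Ier2 had none. The short motif TGACG, the core bound by CREB family factors, was searched on both strands. It was present in a window of 5 of these 8 members, namely Fos, Fosb, Junb, Egr2 and Nr4a1, and in 20.8% of 32851 windows of the same length. The 8 members had 12 windows, so for each motif a count of members and a share of single windows are unlike measures. The stretches below run 5′ to 3′ on the gene's strand over positions -130 to -21 from the start site, with TGACG or its reverse complement CGTCA in capitals, and in Jun the longer motif TGACATCA.
Fos, chr12:85473760-85473869, plus strand: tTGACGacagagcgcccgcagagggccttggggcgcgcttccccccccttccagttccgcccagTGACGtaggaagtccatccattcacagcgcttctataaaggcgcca
Fosb, chr7:19310066-19310175, minus strand: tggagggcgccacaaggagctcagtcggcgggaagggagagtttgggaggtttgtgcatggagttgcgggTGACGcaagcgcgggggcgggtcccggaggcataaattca
Junb, chr8:84978769-84978878, minus strand: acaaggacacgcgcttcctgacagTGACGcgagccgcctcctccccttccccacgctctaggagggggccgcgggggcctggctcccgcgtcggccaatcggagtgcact
Nr4a1, chr15:101266716-101266825, plus strand: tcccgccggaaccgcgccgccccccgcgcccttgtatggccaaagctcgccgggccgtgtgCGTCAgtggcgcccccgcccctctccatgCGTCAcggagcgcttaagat
Egr2, chr10:67537739-67537848, plus strand: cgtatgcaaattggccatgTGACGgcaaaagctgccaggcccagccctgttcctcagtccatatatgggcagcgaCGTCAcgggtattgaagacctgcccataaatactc
Jun, chr4:95052243-95052352, minus strand: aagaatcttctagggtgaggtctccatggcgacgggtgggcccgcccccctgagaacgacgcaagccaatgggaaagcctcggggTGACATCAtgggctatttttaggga

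In Fos the motif began at positions -129 and -66, in Fosb at -60 and in Junb at -106. Nr4a1 held it at 4 places, -233, -213, -69 and -40, all on the opposite strand, and the first 2 of them lie outside the stretch printed. Egr2 has several start sites, and in the first window that held the motif it began at -111 and, on the opposite strand, at -55, with a CArG box, the site bound by serum response factor, at -72. A CArG box was found in a window of 1 of the 8 members and in 1.63% of all windows. TGACATCA, searched after the sequences were seen, was at -45 in Jun and in 3.62% of windows. The EGR motif GCGGGGGCG was in windows of 3 members, Fosb, Fosl2 and Nr4a1, and in 2.91% of windows, whereas the full sites TGACGTCA, which contains TGACG, and TGACTCA were in windows of 0 members and in 1.79% and 5.20% of all windows. Member windows had 54.0% to 72.3% G and C bases against a median of 52.7% over all windows, which was not allowed for. A match is a description of the letters and not evidence of binding.

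The FOS subfamily supplies the AP-1 partner that cannot bind DNA as a pair of its own kind. Fos, the founding member, read 12.49, 12.84 and 13.16 in post-lactation arrays 1 to 3, 12.89, 13.14 and 12.17 in lactation arrays and 11.95, 13.44 and 13.08 in virgin arrays. Its highest and its lowest value were both in virgin arrays, and the groups overlapped. Fosb, a close relative, read 8.88, 8.76 and 9.01 in post-lactation, 8.78, 9.02 and 8.88 in lactation and 8.43, 9.56 and 9.60 in virgin arrays. The 6 post-lactation and lactation values of Fosb lay between virgin 1 below and virgin 2 and 3 above. Fosl2, which encodes FRA2, an AP-1 protein of osteoblasts and osteoclasts, read 9.13, 9.68 and 9.55 in post-lactation, 9.38, 9.11 and 8.93 in lactation and 8.51, 9.30 and 9.45 in virgin arrays. At this probe set virgin 1 was again the lowest, and the highest value was in post-lactation 2.

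JUN proteins can pair with each other or with FOS proteins. Jun read 11.21, 11.36 and 12.04 in post-lactation, 11.41, 11.56 and 10.75 in lactation and 10.63, 11.72 and 11.11 in virgin arrays. The highest value was in post-lactation 3, and in each group the array of set 1 was the lowest. Junb, which acts in bone-forming and bone-resorbing cells, read 8.98, 9.28 and 9.66 in post-lactation, 9.26, 9.55 and 9.25 in lactation and 8.03, 10.47 and 10.36 in virgin arrays. Virgin 2 and 3 were above all 6 other-group arrays and virgin 1 below all of them.

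Egr1, a zinc finger factor induced by growth factors and load, read 11.69, 11.63 and 12.22 in post-lactation, 11.95, 12.19 and 11.44 in lactation and 10.68, 12.40 and 12.40 in virgin arrays. Egr2, its relative, read 6.46, 6.43 and 6.75 in post-lactation, 6.46, 6.63 and 5.97 in lactation and 6.26, 6.72 and 7.10 in virgin arrays. Virgin arrays held the lowest and the 2 highest values of Egr1, while the lowest value of Egr2 was in lactation 3. Nr4a1, also called Nur77 and known as a gene induced by parathyroid hormone in osteoblasts, read 11.27, 10.71 and 11.49 in post-lactation, 10.70, 11.24 and 11.17 in lactation and 10.60, 11.81 and 11.29 in virgin arrays. Its groups overlapped, with virgin arrays again the lowest and the highest.

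Ier2 encodes a nuclear protein induced by growth factors. It read 9.63, 9.08 and 10.01 in post-lactation, 9.33, 9.85 and 9.63 in lactation and 9.58, 10.28 and 9.62 in virgin arrays. Ier2 was the member that varied least among virgin arrays. Ier3, also called IEX-1, encodes a regulator of cell survival and read 9.73, 10.80 and 11.36 in post-lactation, 10.83, 11.20 and 10.27 in lactation and 9.28, 11.86 and 11.57 in virgin arrays. The array of set 1 was the lowest in every group for Ier3.

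**Figure D1:**
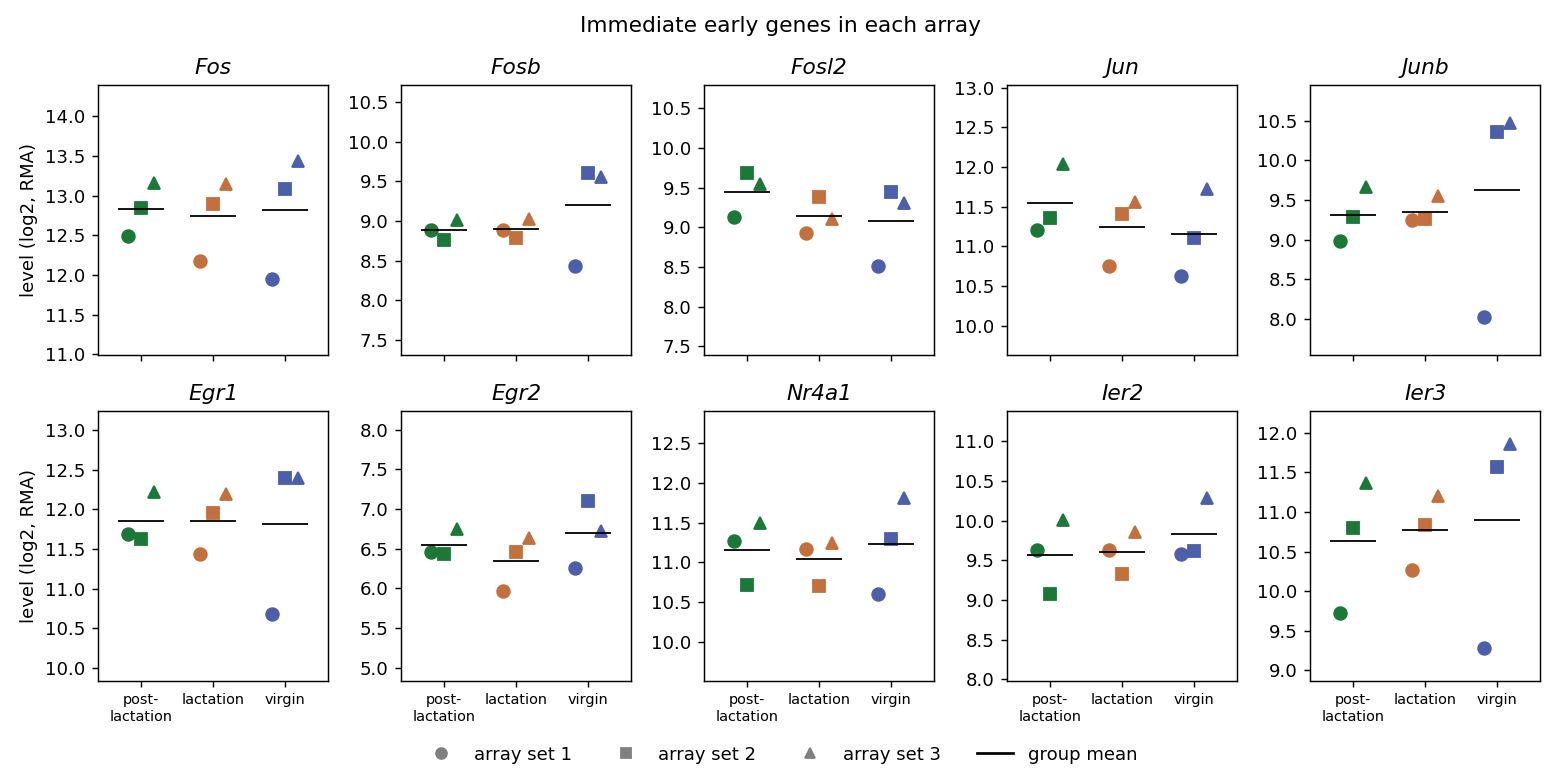
Level of each of the 10 genes (y axis, log2 RMA value, every panel spanning the same number of log2 units) in the 9 arrays, by group on the x axis. Marker shapes give the array set and black lines the group means. Virgin arrays spread the most in every panel but that of Ier2, with Junb at 8.03 in virgin 1 and above 10 in the other virgin arrays.

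Lactation against virgin asks whether the demand of milk production on bone went with a different early gene level. None of the 10 members passed the threshold of an adjusted p under 0.05, and their differences were small. The largest was that of Egr2, which averaged 6.35 ± 0.34 in lactation and 6.70 ± 0.42 in virgin arrays (SD, n = 3 each), a difference of -0.34 on the log2 scale (SE 0.26). Fos averaged 12.74 ± 0.51 in lactation and 12.82 ± 0.78 in virgin arrays, a ratio of 0.940 with a 95% interval from 0.524 to 1.69. Junb averaged 9.35 ± 0.17 in lactation and 9.62 ± 1.38 in virgin arrays, a ratio of 0.831 with an interval from 0.375 to 1.84.

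The group mean was higher in lactation for 3 members and lower for 7, with a median difference of -0.17 against 0.01 over all genes. By limma the adjusted p was 1 for each member, 0 of 10 were called and 0 had an unadjusted p under 0.05, where 0.0% of all genes were called. With the array set as a block 0 of 10 were called and 0 had an unadjusted p under 0.05, against 0.022% of all genes called. The 2 groups did not overlap for 0 of 10 members and for 2.75% of all genes.

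The differences ran in opposite directions in different array sets. Within set 1, where virgin 1 is the comparator, 9 of 10 members were higher in lactation, with a median difference of 0.44, Egr2 being the exception at -0.29. Within set 2 the median was -0.51 and 9 of 10 were lower, Jun being the exception at 0.30, and within set 3 it was -0.37 and all 10 were lower. Over all genes the median was 0.02, 0.00 and 0.00 in these sets. Junb differed by 1.22 in set 1, -1.10 in set 2 and -0.92 in set 3, and Ier3 by 0.98, -0.73 and -0.66. Without virgin 1 and without a block all 10 members had a lower mean in lactation, with a median of -0.53 against -0.08 over all genes, of which 12299 of 18194 were lower. By limma the adjusted p was 1 for each, and the unadjusted p was under 0.05 for Junb, at -1.06 (SE 0.25), and for Fosb, at -0.68 (SE 0.20), as for 424 of all genes. In that comparison virgin 2 and 3 were both above all lactation arrays for 6 members, Fosb, Junb, Egr1, Egr2, Nr4a1 and Ier3, while groups did not overlap in either direction for 8.84% of all genes. Leaving out virgin 1 leaves lactation 3 with no virgin array of its set, which mixes group with array set. With the set block and without virgin 1, Jun was higher in lactation by 0.03 and all other members were lower. Fos then differed by -0.30, Egr1 by -0.39, Junb by -0.95 and Ier3 by -0.60.

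**Figure D2:**
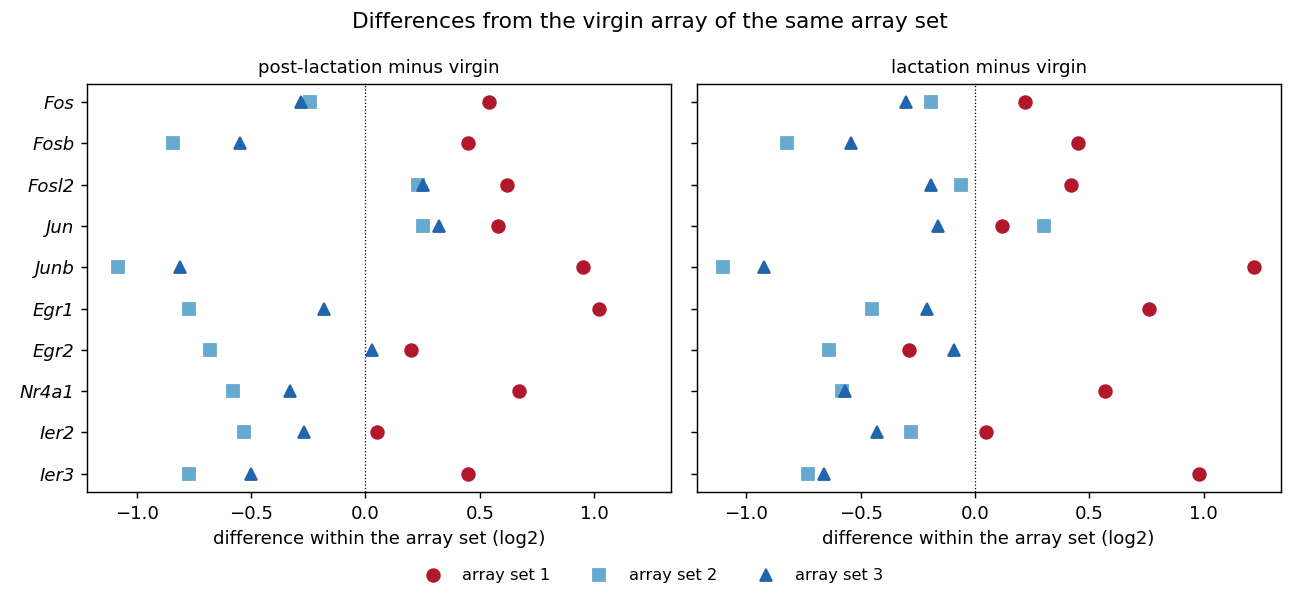
Difference of each gene from the virgin array of the same array set (x axis, log2), for post-lactation on the left and lactation on the right. Set 1, which holds virgin 1, lies at positive values for all 10 genes in post-lactation and for 9 in lactation, while sets 2 and 3 lie mostly below 0.

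Post-lactation against lactation asks what changed in the week after weaning. Its differences use no virgin array, but its errors and p-values share a spread estimated on all 9 arrays, so that without virgin 1 the SE was 0.18 for Fosb and 0.22 for Junb, against 0.29 and 0.52 with it. The members did not separate. Fosl2 averaged 9.45 ± 0.29 in post-lactation and 9.14 ± 0.23 in lactation arrays (SD, n = 3 each), a difference of 0.31 (SE 0.28). Jun averaged 11.54 ± 0.44 in post-lactation and 11.24 ± 0.43 in lactation arrays, a difference of 0.30 (SE 0.33). Fosb averaged 8.88 ± 0.13 in post-lactation and 8.90 ± 0.12 in lactation arrays, a ratio of 0.990 with a 95% interval from 0.632 to 1.55. Egr1 averaged 11.85 ± 0.33 in post-lactation and 11.86 ± 0.39 in lactation arrays, a ratio of 0.991 with an interval from 0.520 to 1.89.

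The mean was higher in post-lactation for 5 members and lower for 5, with a median of 0.04 against 0.00 over all genes. By limma the adjusted p was 1 for each, and 0 of 10 members were called or had an unadjusted p under 0.05, where 0.709% of all genes were called. With the set block 0 of 10 were called against 3.53% of all genes. Only Fosl2 of the 10 had an unadjusted p under 0.05 in that fit, and its adjusted p by limma was 0.308, or 0.0678 without virgin 1. Fosl2 was higher in post-lactation in all 3 sets, by 0.20, 0.30 and 0.44, whereas Jun differed by 0.46, -0.04 and 0.48. The groups did not overlap for 0 of 10 members and for 7.63% of all genes. The second, dimmer probe set of Fosl2 differed by 0.47 (SE 0.20) and that of Jun by 0.10 (SE 0.27), while for Egr2 the 2 probe sets differed in sign, 0.19 and -0.14, all with an adjusted p of 1 over all probe sets by limma.

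Post-lactation against virgin asks whether levels were back at those of control bone. Jun averaged 11.54 ± 0.44 in post-lactation and 11.15 ± 0.55 in virgin arrays (SD, n = 3 each), a ratio of 1.30 with a 95% interval from 0.785 to 2.17. Fosl2 averaged 9.45 ± 0.29 in post-lactation and 9.08 ± 0.51 in virgin arrays, a ratio of 1.29 with an interval from 0.846 to 1.97. Fosb averaged 8.88 ± 0.13 in post-lactation and 9.20 ± 0.67 in virgin arrays, a ratio of 0.804 with an interval from 0.513 to 1.26. Fos averaged 12.83 ± 0.34 in post-lactation and 12.82 ± 0.78 in virgin arrays, a ratio of 1.00 with an interval from 0.559 to 1.80.

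None of these differences passed the test. By limma the adjusted p was 1 for each member and 0 of 10 were called or had an unadjusted p under 0.05, where 0.176% of all genes were called. With the set block 0 of 10 were called against 0.451% of all genes. Jun and Fosl2 had an unadjusted p under 0.05 in that fit, and their adjusted p by limma was 0.46 and 0.477. Both were higher in post-lactation in each set, Jun by 0.58, 0.25 and 0.32 and Fosl2 by 0.62, 0.23 and 0.25. The mean was higher for 4 members and lower for 6, with a median of -0.11 against 0.00 over all genes, and the groups did not overlap for 0 of 10 members and for 2.67% of all genes.

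The array sets again differed in direction. The median was 0.56 in set 1 with all 10 members higher in post-lactation, -0.63 in set 2 with 8 lower and -0.28 in set 3 with 7 lower. Egr1 differed by 1.02 in set 1, -0.77 in set 2 and -0.18 in set 3. Without virgin 1 and without a block the median was -0.41 against -0.09 over all genes, with 8 members lower and Fosl2 and Jun higher by 0.08 and 0.12, while 12987 of 18194 genes were lower. Then 3 members and 530 of all genes had an unadjusted p under 0.05 by limma, the members being Junb (-1.10, SE 0.25, adjusted p = 0.312), Fosb (-0.70, SE 0.20, adjusted p = 0.731) and Ier3 (-1.09, SE 0.43, adjusted p = 1). Virgin 2 and 3 were both above all post-lactation arrays for 4 members, Fosb, Junb, Egr1 and Ier3, and groups did not overlap for 7.76% of all genes. The comparison shares its virgin arrays with lactation against virgin and its post-lactation arrays with the comparison after weaning.

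**Figure D3:**
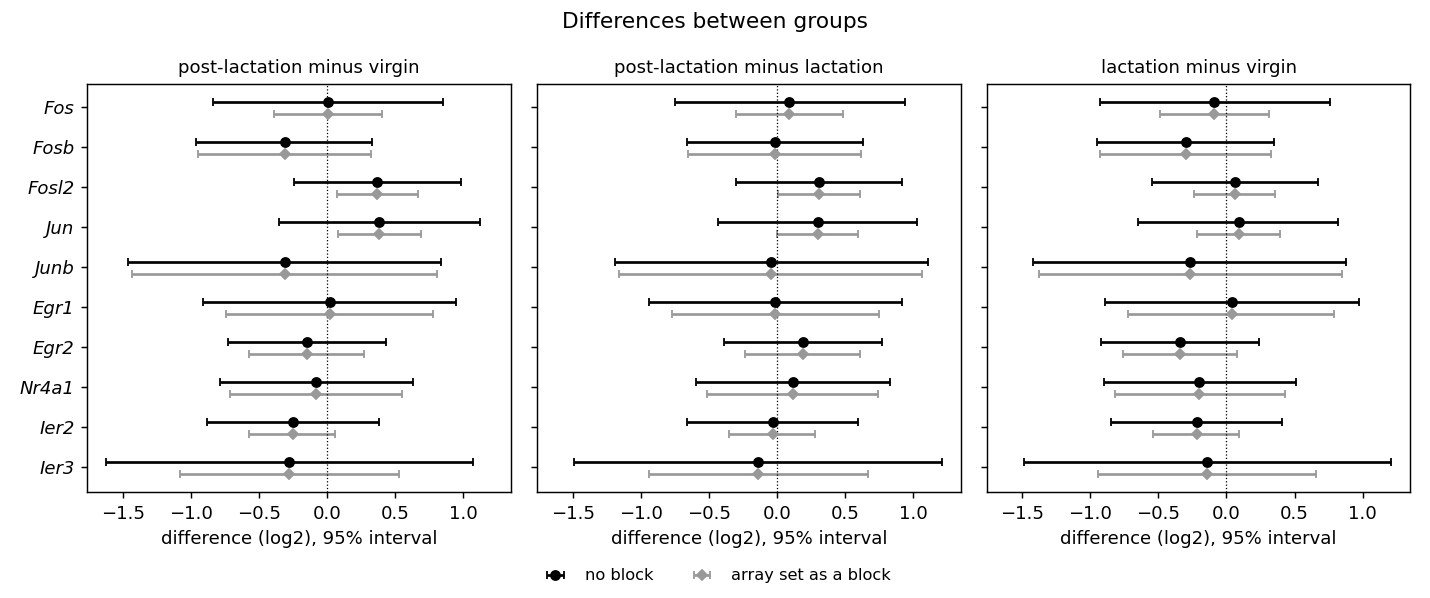
Difference between groups for each gene (x axis, log2), with 95% intervals from limma. Black points have no block and grey diamonds have the array set as a block. All black intervals include 0, while before adjustment over all genes the grey intervals of Fosl2 in both post-lactation panels and of Jun in post-lactation minus virgin lie above 0.

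For 9 of the 10 members the SD was highest among virgin arrays, and for Ier2 it was 0.46 in post-lactation and 0.39 in virgin arrays. Their SDs were 0.13 to 0.83 with a median of 0.34 in post-lactation, 0.12 to 0.51 with a median of 0.32 in lactation and 0.39 to 1.41 with a median of 0.64 in virgin arrays. Over the 10916 genes above the dim level the median SD was 0.29, 0.25 and 0.32 in the same groups. The SD exceeded the 90th percentile of those genes for 1 member in post-lactation, 1 in lactation and 4 in virgin arrays. No test was made of this difference in spread.

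Virgin 1 was below both other virgin arrays for all 10 members at the probe set used, and for 10693 of 18194 genes. The second, dimmer probe set of Fosl2 went the other way, at 6.52 in virgin 1, 6.26 in virgin 2 and 6.25 in virgin 3. Those of Jun (8.81, 9.48 and 8.86) and Egr2 (5.47, 6.09 and 6.44) were lowest in virgin 1. The members' median difference from the mean of virgin 2 and 3 was -1.05, against -0.29 over all genes. Ier3 and Junb were furthest, at -2.43 and -2.38, and Ier2 nearest, at -0.37. In the same set, post-lactation 1 was the lowest of its group for 5 members, with a median difference of -0.36 from its group mates, and lactation 3 for 7, with a median of -0.44. Among genes above the dim level the median was -0.20 in post-lactation 1, -0.17 in lactation 3 and -0.19 in virgin 1, and these arrays were the lowest of their group for 51.6%, 50.6% and 51.9% of them.

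Markers of several cell types, though not of all, were also low in virgin 1, where 10693 of 18194 genes were below both other virgin arrays. Of 9 measured osteocyte markers 8 were lower there than in both other virgin arrays, and Sost, a Wnt inhibitor made by osteocytes, read 8.14 in virgin 1, 13.39 in virgin 2 and 13.55 in virgin 3. The summed signal of the osteocyte list, in log2 above the array median, was 9.79 to 10.53 in post-lactation, 10.19 to 10.36 in lactation and 8.17 to 10.81 in virgin arrays. In virgin 1 also all 7 B lymphocyte markers and all 6 periosteum and tendon markers were lower than in both other virgin arrays. So were 5 of 5 adipocyte and marrow stroma, 7 of 8 endothelium, 6 of 8 skeletal muscle, 5 of 6 osteoblast and 7 of 9 osteoclast markers. The count was 5 of 9 for macrophage and monocyte, 2 of 6 for T and NK lymphocyte and 1 of 9 for erythroid markers. Of the neutrophil markers 6 of 9 were higher than in both, as were 2978 of 18194 genes. The summed B lymphocyte signal was 6.63 to 7.45, 5.31 to 6.06 and 4.57 to 6.21 in post-lactation, lactation and virgin arrays, the neutrophil signal 12.06 to 12.21, 11.57 to 12.02 and 11.83 to 12.31, and the periosteum and tendon signal 7.69 to 8.06, 7.60 to 7.99 and 7.23 to 8.60. In such bulk samples fewer cells of a type and less RNA per cell cannot be told apart, and the part of these markers in the members' levels was not tested.

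Heat shock genes, which encode chaperones, went the other way in virgin 1. There 11 of 15 were above both other virgin arrays and 2 below, where 2978 of 18194 genes were above both and 10693 below. Hsph1 read 10.47 in virgin 1, 8.26 in virgin 2 and 8.09 in virgin 3, and Hspa1b 12.58, 11.21 and 11.18, both chosen after their values were seen. The mean level of the heat shock list, in log2 above the array median, was 5.64, 5.23 and 5.44 in post-lactation arrays 1 to 3, 5.43, 5.28 and 5.25 in lactation and 5.94, 4.99 and 5.02 in virgin arrays. On that scale the members' mean was 5.60, 5.48 and 5.72 in post-lactation, 5.53 in each lactation array and 5.08, 5.94 and 5.98 in virgin arrays. Virgin arrays therefore held the lowest and the highest 2 values of the members.

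**Figure D4:**
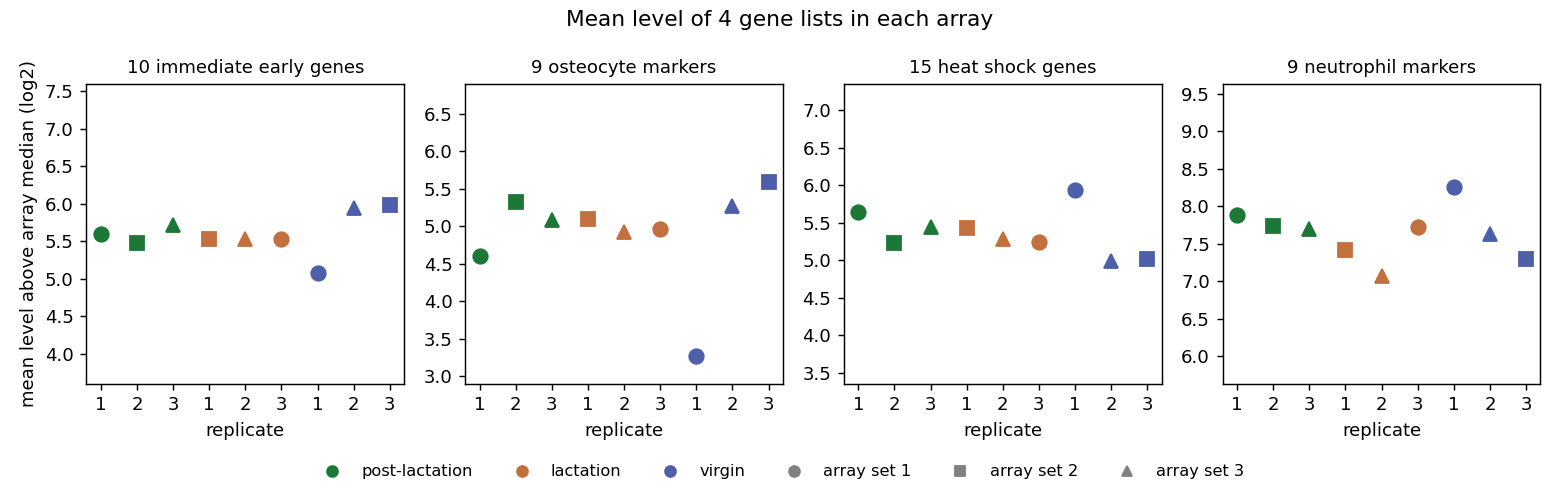
Mean level of 4 gene lists above the array median (y axis, log2) in each array (x axis, replicate number). Colours give the group and shapes the array set. In virgin 1 the immediate early genes stood at 5.08 and the osteocyte markers at 3.27, their lowest values, and the heat shock genes at 5.94, their highest.

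Other genes of the same pathways were counted from the same fits, and by limma without a block 0 were called in any comparison. An unadjusted p under 0.05 was reached in lactation against virgin by 2 of the AP-1 targets, in post-lactation against lactation by 4 of the AP-1 targets and 2 early response genes, and in post-lactation against virgin by 2 AP-1 targets, 1 AP-1 partner and 1 heat shock gene. Over all 18194 genes such a p was reached by 328, 921 and 381 in these comparisons. Among 11 other AP-1 and related leucine zipper genes the median difference was -0.10 in lactation against virgin, 0.12 in post-lactation against lactation and 0.00 in post-lactation against virgin. Jdp2, a repressor that pairs with JUN proteins, did not overlap between groups, averaging 9.31 in lactation and 9.06 in virgin arrays, and 9.51 in post-lactation against the same virgin arrays (differences 0.25 and 0.45, adjusted p = 1 by limma for both). The remaining EGR and NR4A genes with the NAB corepressors, 6 in all, had medians of -0.08, 0.13 and 0.06 in these comparisons. Nr4a2, singled out after its values were seen, read 10.16, 10.90 and 10.50 in post-lactation, 10.47, 10.45 and 10.49 in lactation and 8.14, 10.97 and 11.16 in virgin arrays, so its low value too was in virgin 1.

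A list of 35 further early response genes had a median of -0.18 in lactation against virgin, with 27 lower, 0.20 in post-lactation against lactation, with 26 higher, and 0.04 in post-lactation against virgin. Without virgin 1 and without a block the first of these medians was -0.36 with 32 lower. By limma 12 of the 35 then had an unadjusted p under 0.05, where over all 18194 genes 12299 were lower and 424 had such a p. After weaning Ppp1r15a, a stress-induced phosphatase subunit, averaged 8.92 in post-lactation and 9.48 in lactation arrays, and Rgs2, an inhibitor of G protein signals, 10.16 and 9.66 in the same order (adjusted p by limma 1 and 0.98). These were the 2 of the 35 without overlap after weaning, or 5.71%, against 7.63% of all genes. Virgin 1 was below both other virgin arrays for 26 of the 35, and for 10693 of 18194 genes. It was so for 5 of the 6 EGR, NR4A and NAB genes and 15 of the 20 feedback inhibitors described next. Other lists did not share this, with 5 of 11 AP-1 partners, 7 of 16 upstream kinases and factors and 7 of 14 AP-1 targets.

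The 20 feedback inhibitors, which shut the response off, had medians of 0.08, 0.14 and 0.19 in lactation against virgin, post-lactation against lactation and post-lactation against virgin. Tnfaip3, Dusp10 and Dusp16 did not overlap after weaning and were higher in post-lactation than in lactation by 0.52, 0.42 and 0.32 (adjusted p = 1 by limma for each). They were the only 3 of the 20 without overlap there, where groups did not overlap for 7.63% of all genes and 11.9% of genes above the dim level. With the set block 1 of the 20 passed in that comparison, Zfp36, singled out after its values were seen, an RNA-binding protein that speeds decay of AU-rich transcripts, at 0.55 (SE 0.10, adjusted p = 0.0461 by limma, 0.0606 with the block and without virgin 1, and 1 without the block). With the set block 3.53% of all genes were called after weaning. The 16 kinases and SRF or CREB factors upstream had medians of 0.01, 0.00 and 0.00. The 15 heat shock genes had medians of -0.02, 0.10 and 0.01. Among them Hspa4l was lower in post-lactation than in lactation by a difference of -0.57, and Hspb1 was higher in post-lactation than in virgin by 1.04, each without overlap and with an adjusted p of 1 by limma.

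Among 14 measured genes known as AP-1 targets in bone and matrix, the medians were 0.11, 0.00 and 0.07. Timp1, an inhibitor of matrix metalloproteinases, read 6.93, 8.04 and 8.61 in post-lactation, 9.57, 9.47 and 9.12 in lactation and 8.12, 8.31 and 8.65 in virgin arrays. Lactation arrays were the highest. Timp1 differed by -1.52 in post-lactation against lactation (adjusted p = 0.145 by limma, and 0.0418 with the set block) and by 1.03 in lactation against virgin (adjusted p = 1, and 0.316 with the set block). Mmp13, a collagenase singled out after its values were seen, read 10.51, 11.84 and 12.58 in post-lactation, 13.28, 13.27 and 12.42 in lactation and 11.68, 12.51 and 12.13 in virgin arrays, a difference of -1.35 after weaning (adjusted p = 0.545, and 0.0467 with the set block). These were the 2 targets called with the block, and neither was called when virgin 1 was left out of that fit (adjusted p = 0.0591 for Timp1 and 0.053 for Mmp13). Il6, a cytokine, averaged 9.86 in post-lactation and 8.66 in lactation arrays, a difference of 1.20 (adjusted p = 0.254, and 0.0836 with the set block), and Ccl2, a monocyte chemokine, 9.61 and 8.56 in the same order (adjusted p = 1). Ibsp and Mmp9 were higher in lactation than in virgin by 0.70 and 0.56, and Mmp9 in post-lactation than in virgin by 0.44, without overlap and with an adjusted p of 1 by limma for each. Cell markers also differed between these groups, some lists falling after weaning as Timp1 and Mmp13 did and others rising as Il6 and Ccl2 did. Of 9 osteoclast markers, among them Mmp9 itself, 7 did not overlap in lactation against virgin, with a median difference of 1.33, and after weaning the median was -1.22 with 5 of 9 called lower with the set block by limma. Over all genes 2.75% did not overlap in lactation against virgin. After weaning 3.53% of all genes were called with the set block and 0.709% without a block. The summed osteoclast signal, in log2 above the array median, was 7.90 to 8.57 in post-lactation, 8.91 to 9.57 in lactation and 7.73 to 7.90 in virgin arrays, with Calcr below the dim level. All 9 erythroid markers were called lower in post-lactation than in lactation without a block, with a median of -4.79, and their summed signal was 3.48 to 4.53 in post-lactation, 8.84 to 9.11 in lactation and 7.25 to 8.20 in virgin arrays. In the same comparison after weaning the median was 1.10 for B lymphocyte, 0.71 for adipocyte and marrow stroma and 0.31 for neutrophil markers. The mean was higher for 7 of 7, 4 of 5 and 7 of 9 of them. In sets 1 to 3 the adipocyte and marrow stroma median was 1.39, 0.00 and 0.74. Bulk arrays do not show which cells, osteocytes included, held the transcripts of the osteoclast list or of the other lists. The part of these markers in the targets' differences was not tested.

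After each array's value was centred on the mean of its array set, the genes whose pattern was most like the members' mean were Dlc1, Ift57 and Abi3bp, each with a Pearson r of 0.98 over the 9 arrays, and Usp53 and Egr3 with an r of 0.97. Centring within sets of 3 ties the values of a set together, so r is a description. Without virgin 1 these r values were 0.98, 0.96, 0.98, 0.96 and 0.95 over 8 arrays. The genes had been picked for the highest r among genes above the dim level on arrays that include these 8, so this is no independent check. Egr3, an EGR factor, read 8.89, 9.72 and 9.66 in post-lactation, 9.64, 9.36 and 8.67 in lactation and 7.97, 9.74 and 10.43 in virgin arrays. For single members the most alike genes were Mef2c for Fos, Mbnl1 for Fosb, Traf3ip2 for Fosl2, Alox15 for Jun, Dyrk1a for Junb, Hoxa10 for Egr1, Lrrc58 for Egr2, Ift57 for Nr4a1, Cnbp for Ier2 and P4ha1 for Ier3, with an r of 0.98 to 0.99. On the centred scale virgin 1 was the lowest array for 8 of the 10 members, and the exceptions were Egr2, lowest in lactation 3, and Ier2, lowest in post-lactation 2.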

How the data were processed

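The authors deposited log2 values for 45101 probe sets on 9 arrays. Per the submitters' processing notes RMA made them, and the design text lists Bioconductor and GenePattern as analysis software. The sources used here give no versions, annotation or filters. Values ran from 1.55 to 14.9 with 0 missing and were used without another log. Arrays of one set shared exactly equal values at 2.50% to 2.72% of probe sets in set 1 and at 36.1% to 44.1% in sets 2 and 3. Other pairs shared at most 0.004%, so arrays were not all summarised together. Of the probe sets, 34958 named 1 gene in the annotation supplied for the array, 932 several and 9211 none; symbols were updated by gene ID. limma version 3.58.1 in R version 4.3.3 fitted group means on all 9 arrays and 18194 genes (lmFit, eBayes, no trend, 6 residual degrees of freedom), with Benjamini-Hochberg adjustment over all genes and calls at an adjusted p under 0.05. The fit was run on simulated data without array sets, in which 200 of 18194 genes differed by 4 on the log2 scale in lactation against virgin. All 200 were found with 14 false calls, which does not measure power for differences as small as those of the members. Alternatives were the replicate or array set block, median centring, quantile normalization, leaving out dim genes, an intensity trend, other probe set rules, and leaving out each array or set 1.

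All 10 members were named. Listed genes were named, up to 3 a list, for the largest difference without overlap between groups and with the higher mean above the dim level, and likeness was by Pearson r. The members and lists were chosen with earlier results of these data known. Replicate numbers do not pair the arrays. Promoter windows are those of RefSeq on GRCm38.p6.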

Additional observations from a re-analysis of the deposited data

How the results depend on the processing

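In the 19 alternatives 0 of the 10 members were called in any comparison, and the lowest adjusted p of a member was 0.0678 by limma, for Fosl2 after weaning with the set block and without virgin 1, a setting chosen after seeing the data. Of the 30 member differences 8 kept their sign in every alternative. Without single arrays, Junb in lactation against virgin ran from -1.06 (without virgin 1) to 0.16, and Fos from -0.53 to 0.22.

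Counts over all genes moved more. In lactation against virgin 0 genes were called, 4 with the set block and 1 each with median centring and quantile normalization. In post-lactation against lactation 129 were called, 642 with the set block, 927 with that block and without virgin 1, 200 with quantile normalization and 0 without array set 1, which leaves 2 arrays a group. In post-lactation against virgin 32 were called, 82 with the set block, 4 with that block and without virgin 1, 20 over all probe sets and 0 without array set 1. The set-block calls of Zfp36, Mmp13 and Timp1 after weaning were lost without virgin 1, with an adjusted p by limma of 0.053 to 0.0606. Leaving out single arrays gave 0 in lactation against virgin, 76 (without lactation 2) to 138 after weaning, and 13 (without post-lactation 1 or post-lactation 2) to 34 against virgin; without post-lactation 2 the count after weaning was 80, and against virgin it was 16 without post-lactation 3 and 21 without virgin 1. The replicate block gave 0, 118 and 33, so it changed no member call; deviations of same-numbered arrays correlated between -0.43 and 0.54, so the numbers do not pair the arrays.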
